A study of Mus musculus with 24 samples.

Results

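Gene expression was compared between the cerebellum of mice that had lost their olfactory bulbs by surgery (olfactory bulbectomy) and that of sham-operated mice. The comparison used every cerebellum library in hand, chosen by the labelled tissue and treatment: 2 bulbectomy and 5 sham libraries, which made up 7 of the 24 libraries of the study. The other libraries came from hippocampus (9) and cortex (8) under the same pair of operations. All mice were labelled wild-type, and the sources used here gave no age, sex or time after surgery. Nothing in the labels ties a library to an animal, so the p-values measure the spread between these samples, which may be technical.

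The olfactory bulb is the first relay of smell, and its removal in rodents is a long-used model of depressive-like and Alzheimer-like changes. The cortex of the cerebellum holds densely packed granule cells, whose parallel fibres contact Purkinje cells, and inhibitory interneurons, Bergmann glia and oligodendrocytes lie among them. The choroid plexus of the fourth ventricle and the meninges adhere to the cerebellum and can come along in a dissection.

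Each cerebellum library held 10400540 to 20230673 reads assigned to genes, and levels are given as CPM, the reads of a gene relative to the size of its library, scaled with edgeR's TMM factors. Markers of cerebellar cells were abundant in all 7 libraries: Cbln1, a granule cell synaptic organiser, lay at 1118 to 1811 CPM, and Pcp2, a Purkinje cell gene, at 189 to 772 CPM. A pair of sham libraries stood apart. Sham 1 correlated with the other 6 libraries at Pearson's r = 0.841 to 0.903 across genes, while the remaining pairs lay at 0.951 to 0.978. It had the highest value of the 7 libraries in 36.5% of genes and the lowest in 34.7%, and its median deviation from the other libraries, on the log2 scale, ran from -0.69 in the fifth of genes with the shortest exons to 1.09 in the fifth with the longest. In sham 2 a single gene, the neuronal noncoding RNA Bc1, took 21.5% of the assigned reads, against 0.744% to 4.67% in the other 6 libraries. Values without sham 1, or without sham 2, stand beside the list medians described here whose sign they change.

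Few genes separated bulbectomy from sham cerebellum. Of 15295 genes tested with edgeR's quasi-likelihood test and Benjamini-Hochberg adjustment, 2 rose after bulbectomy at an adjusted p under 0.05 (0.0131%) and none fell. At an unadjusted p under 0.05, 237 genes were higher (1.55%) and 217 lower (1.42%). DESeq2 called 12 genes on the same counts, 7 higher and 5 lower, and limma's voom with sample weights called 67, 57 higher and 10 lower. Both bulbectomy libraries lay above all 5 sham libraries in 913 genes (5.97%) and below all of them in 754 (4.93%). The 2 genes that rose, Tpm3-rs7 and Gm14719, are both copies of other genes, and their sequences are shown first because the copies and their sources share nearly all of their bases.

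Tpm3-rs7 (ENSMUSG00000058126) is a gene of a single exon at chr14:113314608-113316754 on the plus strand (GRCm38), annotated as protein-coding. In the GENCODE M21 transcripts, 2105 of its 2147 bases aligned to Tpm3-201, an 8-exon transcript of Tpm3 on chromosome 3, with 2089 identical bases, 13 mismatches and 6 gap bases (99.1% identity). Tpm3 encodes a tropomyosin, a protein that lies along actin filaments. The 90-base window of the Tpm3 coding sequence with the most mismatches is shown for both genes, with the 3 differing bases in capitals. In Tpm3-rs7 it lies at chr14:113314713-113314802.
Tpm3-rs7: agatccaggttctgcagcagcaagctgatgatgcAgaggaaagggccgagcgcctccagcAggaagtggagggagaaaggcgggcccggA
Tpm3: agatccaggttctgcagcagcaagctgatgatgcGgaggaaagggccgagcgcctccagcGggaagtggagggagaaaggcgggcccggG

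Gm14719 (ENSMUSG00000082192) is annotated as a processed pseudogene at chrX:49660960-49661299 on the plus strand. All 340 of its bases matched Ppdpf-201, a 5-exon transcript of Ppdpf on chromosome 2, without a mismatch, and the alignment had 1 gap of 8 bases. The stretch around that gap is shown, with the 8 Ppdpf bases that Gm14719 lacks in capitals. In Gm14719 it lies at chrX:49661148-49661229.
Gm14719: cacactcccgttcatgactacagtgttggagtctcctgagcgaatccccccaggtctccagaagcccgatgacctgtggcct
Ppdpf: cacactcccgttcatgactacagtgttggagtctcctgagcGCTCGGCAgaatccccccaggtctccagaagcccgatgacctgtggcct

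Tpm3-rs7 lay at 23.3 and 52.3 CPM in bulbectomy 1 and 2 and at 0.356, 0.982, 0.426, 0.310 and 1.02 CPM in sham 1 to 5. Both bulbectomy libraries were far above every sham library, and bulbectomy 2 was above bulbectomy 1. The log2 fold change was 5.91 ± 0.53 (SE; adjusted p = 0.0473, edgeR). Gm14719 had 76 and 116 reads in the bulbectomy libraries and 0, 1, 0, 0 and 1 in the sham libraries. With 192 reads against 2, the pooled ratio was 197 (95% interval 53.8 to 1639, exact Poisson, counting error only), and the fitted log2 fold change was 7.25 ± 0.71 (SE; adjusted p = 0.0473, edgeR). Both calls are uncertain in the sense that reads of a near-identical copy can be assigned to either gene. Each call was also lost when any 1 library other than sham 1 was left out.

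The sources of the copies were therefore read beside them. Tpm3 itself lay at 85.9 and 59.7 CPM after bulbectomy and at 92.3, 144, 116, 125 and 145 CPM in sham, so that both bulbectomy libraries were below all sham libraries. Tpm3 was called lower by voom with sample weights (log2 fold change -0.91, adjusted p = 0.0421) but not by edgeR. The sum of Tpm3 and Tpm3-rs7 was 109 and 112 CPM after bulbectomy and 92.6, 145, 116, 125 and 146 CPM in sham, and the groups overlapped. Tpm3-rs7 took 21.3% of the reads of the pair in bulbectomy 1 (95% exact Clopper-Pearson interval 19.3% to 23.6%) and 46.7% in bulbectomy 2 (44.6% to 48.8%), against 0.248% to 0.699% in the sham libraries. Gm14719 took 8.85% (7.03% to 10.9%) and 9.48% (7.89% to 11.3%) of the reads of Gm14719 and Ppdpf after bulbectomy and 0% to 0.125% in sham. The sum of that pair was 65.0 and 60.9 CPM after bulbectomy and 36.1 to 71.9 CPM in sham, again with overlap.

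High shares of the copies were also present in the other tissues. In the bulbectomy libraries numbered 1, Tpm3-rs7 took 21.3% of the pair in cerebellum, 22.8% in hippocampus and 22.0% in cortex. In those numbered 2 it took 46.7%, 54.4% and 55.1%. The libraries numbered 4 differed from each other: hippocampus bulbectomy 4 stood at 25.1%, while hippocampus bulbectomy 3 (0.509%) and cortex bulbectomy 4 (0.430%) lay within the range of the 15 sham libraries, 0.248% to 0.931%. Gm14719 was high in the same 7 bulbectomy libraries, at 8.85% to 14.6% of its pair. It had no read in hippocampus bulbectomy 3 or cortex bulbectomy 4, and the sham libraries lay at 0% to 0.436%. Of the 9 bulbectomy libraries of the study, 7 thus had the high shares and 2 lay with sham. What sets these libraries apart was not tested.

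**Figure D1:**
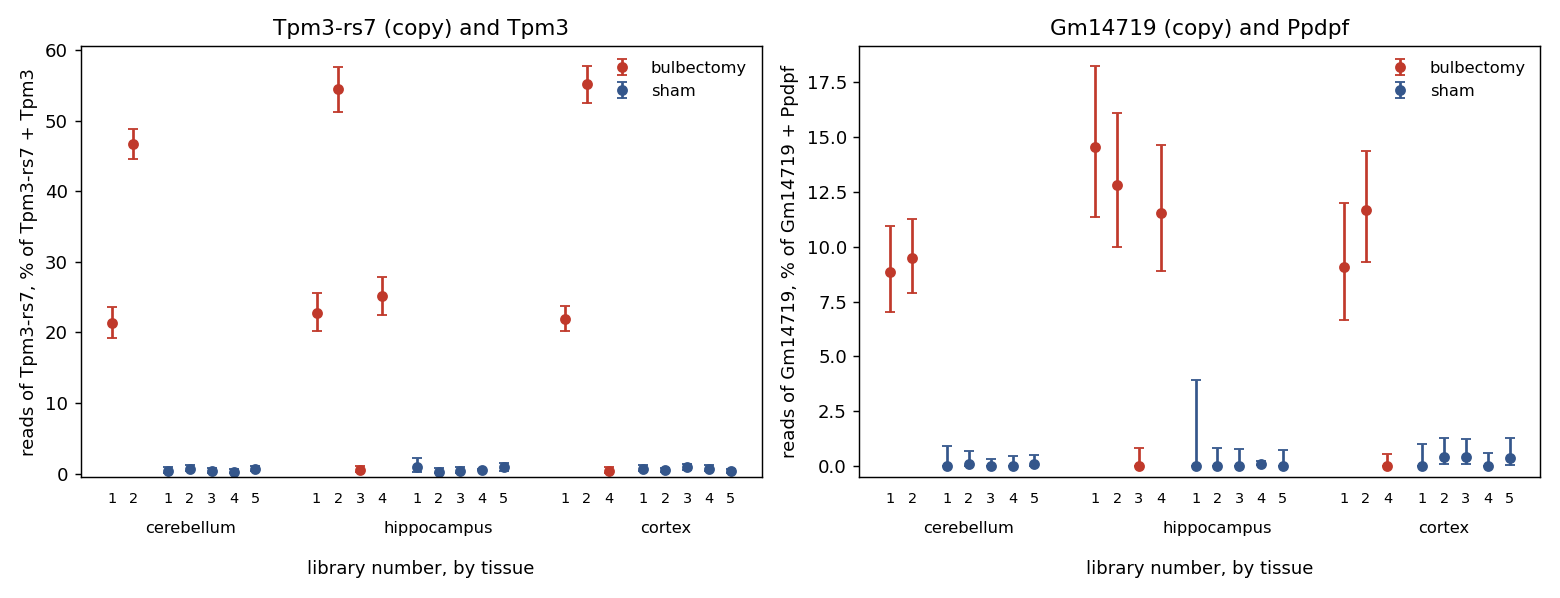
Reads of Tpm3-rs7 as a percentage of Tpm3-rs7 plus Tpm3 (left) and of Gm14719 as a percentage of Gm14719 plus Ppdpf (right) in each of the 24 libraries, with digits for the library number and bars for 95% exact binomial intervals. The 2 cerebellum bulbectomy libraries stand at 21.3% and 46.7% on the left, near the libraries of the same number in hippocampus and cortex, and hippocampus bulbectomy 3 and cortex bulbectomy 4 lie with the sham libraries.

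Besides these, the genes of smallest p in each direction without predicted names are given as values. None of them passed the adjusted threshold over all 7 libraries (adjusted p = 0.9998 for each, edgeR). Other tools did call some of them on the same 7 libraries. DESeq2 called Mir124a-1hg, Lrrc8a, Leng8, Adnp and Prepl (adjusted p = 0.00138, 0.00875, 0.0317, 0.00300 and 0.0317), and voom with sample weights called these 5 and Bmp1. Mir124a-1hg, the host transcript of a copy of the neuronal microRNA miR-124, lay at 62.6 and 79.8 CPM after bulbectomy and at 14.2, 19.3, 7.61, 7.36 and 4.93 CPM in sham. Both bulbectomy libraries lay above every sham library, and the log2 fold change was 2.74 ± 0.47 (SE). Lrrc8a, a subunit of the volume-regulated anion channel, lay at 65.8 and 49.9 CPM against 27.7, 16.2, 14.8, 22.0 and 14.8 CPM (1.60 ± 0.29). Here 66.2% of the exon bases are shared with another gene on the same strand. The deposited counts left reads that fit more than 1 gene unassigned, so these values may rest mainly on the unshared bases. Bmp1, a protease that processes procollagens, lay at 93.3 and 128 CPM against 46.9 to 61.7 CPM (1.04 ± 0.20). Leng8 lay at 43.5 and 59.0 CPM against 10.4 to 21.2 CPM (1.66 ± 0.32). The groups did not overlap in any of the 4.

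On the lower side, Adnp, a chromatin-associated homeobox protein, lay at 0.832 and 0.448 CPM after bulbectomy and at 4.98, 2.68, 4.08, 3.10 and 3.25 CPM in sham (-2.50 ± 0.49). It is a low-count gene here, and 82.1% of its exon bases are shared with another gene on the same strand. As for Lrrc8a, its values may rest mainly on the unshared bases. Prepl, a serine hydrolase, lay at 134 and 142 CPM against 339, 235, 307, 228 and 304 CPM (-1.04 ± 0.22). The bulbectomy libraries lay below every sham library for both genes. Pcdhb2, a clustered protocadherin of neuronal adhesion, lay at 0.227 and 0.149 CPM against 1.01 to 3.65 CPM (-3.14 ± 0.79). Igkv13-84, an immunoglobulin light chain segment, had 3 reads in the bulbectomy libraries and 60 in sham, a pooled sham to bulbectomy ratio of 9.74 (95% interval 3.18 to 48.6, exact Poisson, counting error only).

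**Figure D2:**
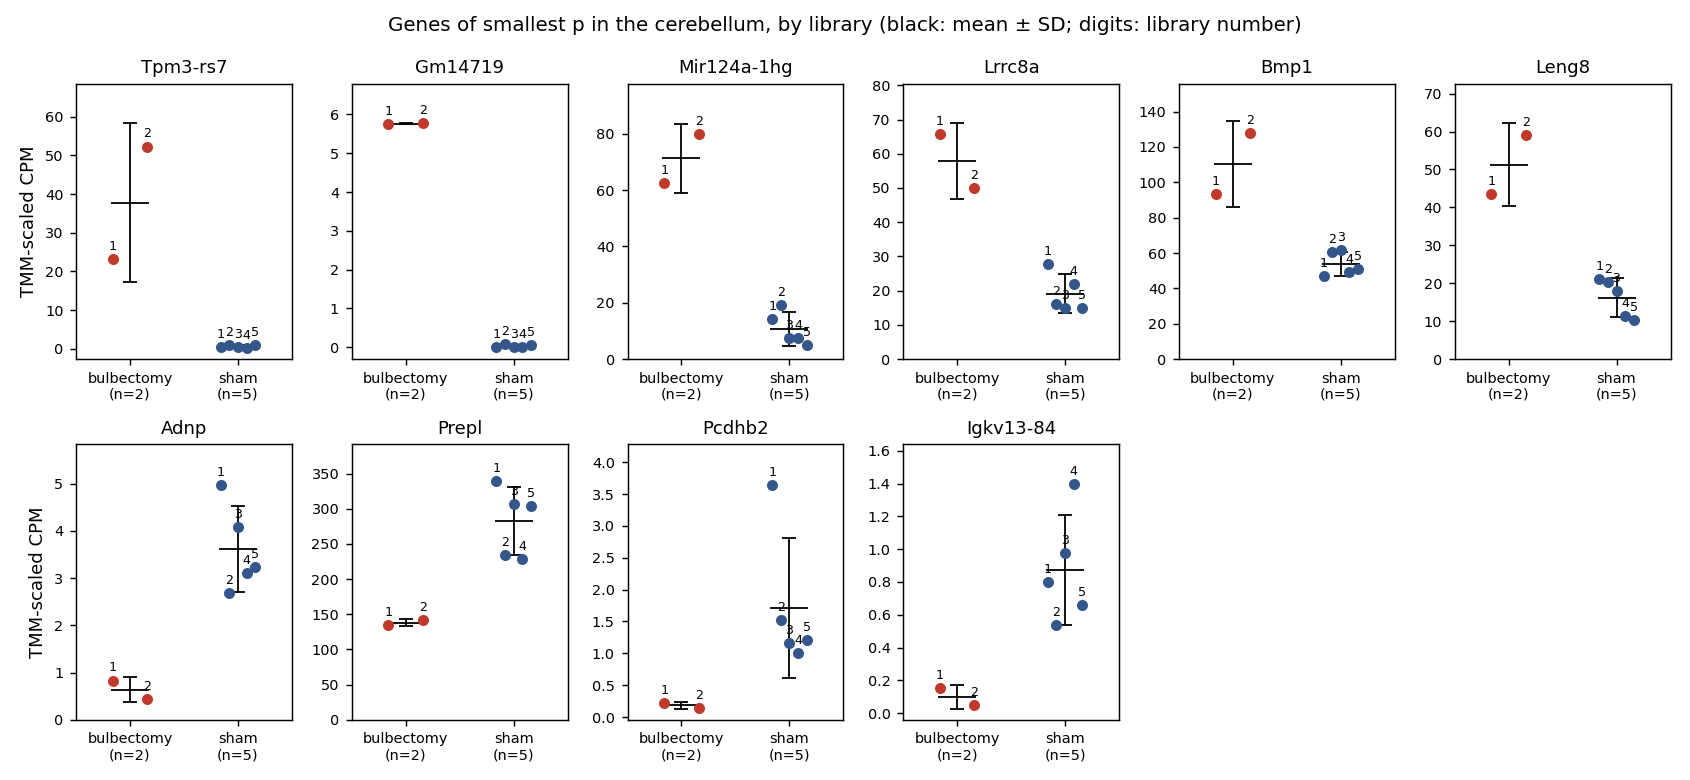
TMM-scaled CPM in each cerebellum library for Gm14719 and genes of smallest p without predicted names, higher (top) and lower (bottom) after bulbectomy. Points are numbered by library, and black marks give the mean ± SD of 2 bulbectomy and 5 sham libraries. No bulbectomy point lies within the range of the sham points, Tpm3-rs7 and Gm14719 are near 0 in all sham libraries, and sham 1 is the highest sham library for Pcdhb2 (3.65 CPM).

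Leaving out sham 1, the library that stood apart, changed the count of calls more than any other single library did. Without it, 36 of 15186 genes were called by edgeR (0.237%), 32 higher and 4 lower, and 922 genes were higher (6.07%) and 730 lower (4.81%) at an unadjusted p under 0.05. Among the 36 were the 2 genes called over all libraries. All 36 had the same sign over the 7 libraries, which include those the genes were chosen on. With sham 1 kept, limma's voom with sample weights, which can give 1 library less weight, called 32 of them. DESeq2, also with sham 1 kept, called 6 of them. As the libraries are the same, these counts are not separate evidence. The choice of genes on the same libraries also favours groups that do not overlap. With sham 1 included the groups did not overlap for 21 of the 36. Among all genes tested, 5.97% were higher and 4.93% lower without overlap. For the other 15, sham 1 lay above the lower bulbectomy library. These genes were chosen after their values were seen, and the values of sham 1 are given beside each. They included another single-exon copy, Gm7868 at chr12:69123101-69123780, which aligned to Txndc9-201 at 98.7% identity and had 55 reads after bulbectomy and 1 in sham.

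The genes are described by where sham 1 lay. Dpysl2, a tubulin-binding protein of axon growth, lay at 170 and 190 CPM after bulbectomy, at 40.9, 33.1, 40.1 and 33.1 CPM in sham 2 to 5 and at 109 CPM in sham 1. It rose by 2.28 ± 0.15 on the log2 scale without sham 1 (adjusted p = 1.50e-05, edgeR), and over all 7 libraries the difference was 1.81 ± 0.46 with sham 1 between the groups. Nlgn3, a postsynaptic partner of neurexins, lay at 41.3 and 33.9 CPM against 11.8 to 17.1 CPM in sham 2 to 5 and 26.9 CPM in sham 1, and shares 41.2% of its exon bases with another gene on the same strand. Mllt6, a chromatin reader, lay at 176 and 161 CPM against 58.6 to 73.4 CPM, with sham 1 at 118 CPM. In these 3 genes sham 1 stood between the bulbectomy libraries and the rest of its own group.

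A further set had sham 1 as high as the bulbectomy libraries or higher. Nmnat2, the enzyme that maintains axonal NAD, lay at 143 and 96.5 CPM against 41.3 to 57.4 CPM, and sham 1 stood at 136 CPM. Nfia, a transcription factor of granule neuron and glial development, lay at 58.2 and 36.6 CPM against 16.4 to 19.3 CPM, and sham 1 at 105 CPM. For Elavl3, a neuronal RNA-binding protein, the values were 177 and 109 CPM against 63.9 to 71.4 CPM, with sham 1 at 286 CPM. Nfib, Rbfox2, Ptprs and Apba1 showed the same order, with sham 1 above both bulbectomy libraries. These are calls that edgeR's fit of 7 libraries does not make: over all libraries the difference of Elavl3 was 0.36 ± 0.64 and that of Nfia 0.42 ± 0.78.

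Other genes separated the groups in all 7 libraries. Zmat3, an RNA-binding protein induced by p53, lay at 80.0 and 76.3 CPM after bulbectomy and at 51.2, 42.0, 37.1, 35.4 and 34.8 CPM in sham 1 to 5. Etnppl, an astrocyte enzyme of phospholipid turnover, lay at 26.5 and 19.2 CPM against 18.0, 11.4, 8.64, 10.5 and 7.33 CPM. mt-Nd6, a complex I subunit and the one protein encoded on the light strand of the mitochondrial genome, lay at 2076 and 1897 CPM against 1494, 1237, 909, 899 and 1041 CPM. On the lower side, Fam120c lay at 3.71 and 3.13 CPM against 9.56 to 42.1 CPM, Usp33, a deubiquitinase, at 10.7 and 8.31 CPM against 18.9 to 66.3 CPM, and Pcdhac2, a clustered protocadherin with 48.6% of its exon bases shared with other genes, at 4.92 and 3.88 CPM against 11.3 to 35.4 CPM. Sham 1 was the highest library for each of the 3 lower genes, so it widened the spread within sham without bringing the groups together.

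**Figure D3:**
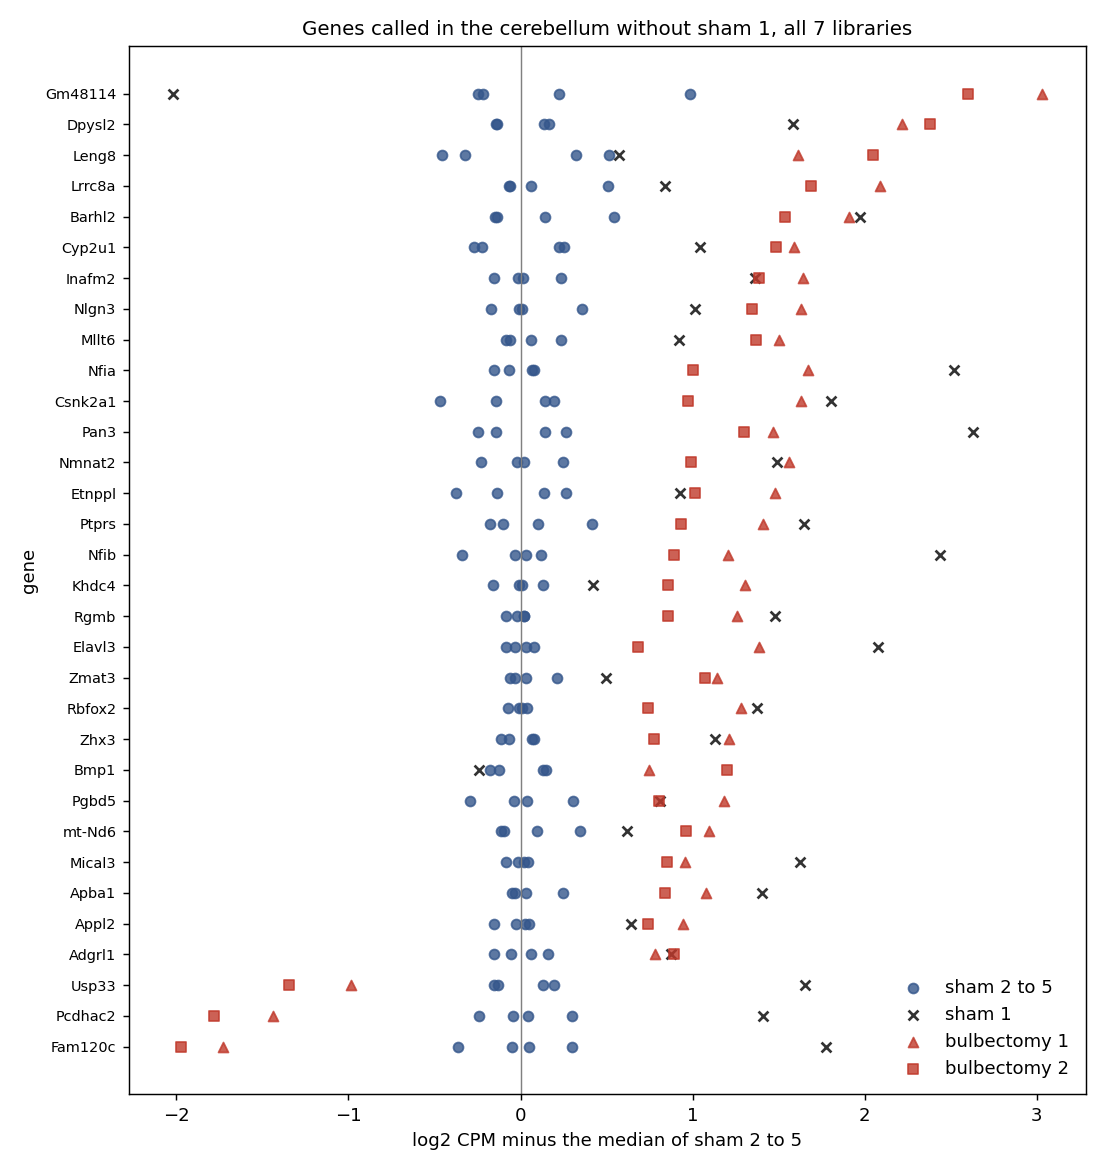
Log2 CPM of 32 of the genes called without sham 1 (the single-exon copies are not drawn), each minus the median of sham 2 to 5, for all 7 cerebellum libraries. Red symbols are the bulbectomy libraries, blue points sham 2 to 5 and crosses sham 1, which lies beyond the lower bulbectomy library in 15 of the higher genes and above every other library in the 3 lower genes shown.

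Cell type markers were read as lists, with each list's level in a library taken as its mean log2 CPM. No member of any list was called by edgeR over the 7 libraries. DESeq2 called 1, Adnp of the chromatin list, and voom with sample weights called 7: Adnp, Crebbp, Barhl2, Nlgn3, Per1, Per2 and mt-Nd6. Across all genes tested the median log2 fold change was -0.06 and 42.8% of genes were higher after bulbectomy, which is the background for the medians that follow. In bulk tissue, fewer cells of a type and less RNA per cell cannot be told apart.

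Levels of granule cell and Purkinje cell markers overlapped between the groups. Of 14 granule cell genes 4 were higher (median -0.29), and their level was 8.17 and 8.09 after bulbectomy against 8.91, 7.89, 8.14, 8.06 and 8.02 in sham, so the bulbectomy libraries lay between sham 1 and sham 2. Without sham 1 the median was 0.01. Of 18 Purkinje cell genes 6 were higher (median -0.21, or -0.08 without sham 1). Itpr1, the calcium release channel of the endoplasmic reticulum, lay at 809 and 611 CPM after bulbectomy and at 4055, 1070, 1857, 1324 and 1397 CPM in sham, with both bulbectomy libraries lowest, and its difference of -1.45 ± 0.55 had an unadjusted p of 0.0296 in edgeR's fit (adjusted p = 0.9998). Pcp4, a calmodulin-binding peptide, went the other way, at 199 and 164 CPM against 98.2 to 154 CPM.

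Inhibitory interneuron markers were lower in 12 of 13 (median -0.42). Without sham 1 they were lower in 9 of 13 (median -0.35). Pvalb, the calcium-binding protein parvalbumin, lay at 2222 and 2367 CPM within the sham range of 928 to 5287 CPM. Gad1, which makes GABA, lay at 249 and 173 CPM against 224 to 582 CPM. The 20 genes of GABA synthesis, transport and reception had 4 higher and a median of -0.55, which was 0.03 without sham 1, the library where their level was 6.46 against 4.75 to 5.004 in the other sham libraries. Over all libraries the lists of glutamate receptors, potassium channels, calcium signalling and chromatin had medians of -0.29, -0.28, -0.29 and -0.23. Without sham 1 these were -0.12, 0.07, -0.03 and -0.02, against -0.02 for all genes. Glutamate receptor genes were then higher in only 9 of 29, against 47.5% of all genes.

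Levels of the oligodendrocyte, astrocyte and microglia lists overlapped as well. Oligodendrocyte markers were higher in 4 of 17 (median -0.18), and Mbp, the main myelin protein, lay at 3181 and 2856 CPM against 2668 to 2965 CPM. Astrocyte markers were higher in 6 of 13 (median -0.03, or 0.01 without sham 2). Gfap, the intermediate filament of astrocytes that rises with gliosis, lay at 667 and 886 CPM within a sham range of 350 to 1306 CPM. Microglia markers were higher in 3 of 16 (median -0.21). C1qa, a complement gene of microglia, lay at 147 and 119 CPM against 52.2 to 255 CPM, so sham alone spanned the bulbectomy values.

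Choroid plexus genes differed widely between libraries of the same group. The choroid plexus list (18 genes) had a level of 0.65 and 4.19 in bulbectomy 1 and 2 and of 3.36, 3.43, 0.68, 4.49 and 0.57 in sham 1 to 5. Ttr, the thyroid hormone carrier secreted by choroid plexus, lay at 11.7 and 879 CPM after bulbectomy and at 448, 265, 14.9, 1291 and 6.73 CPM in sham. Each group thus held libraries with abundant and with scarce choroid plexus RNA, and the list's median of 0.11 was -3.48 without bulbectomy 2. Meningeal fibroblast genes were lower in 13 of 14 (median -0.35, or -0.18 without sham 5), and their level was below every sham library after bulbectomy. Col1a1, a chain of type I collagen, lay at 13.7 and 14.5 CPM against 21.1, 28.0, 30.8, 19.1 and 27.4 CPM, with no overlap (-0.84 ± 0.27, unadjusted p = 0.0139, edgeR, adjusted p = 0.9998). Col1a2 showed 55.8 and 56.9 CPM against 57.4 to 86.0 CPM. All 10 tested genes of peripheral immune cells were lower (median -0.69), but the most abundant, the MHC class II chaperone Cd74, lay at 435 and 245 CPM within 158 to 1079 CPM in sham. Forebrain markers were highest in sham 2, where the list's level was 4.37 against 2.27 to 2.62 in the other sham libraries, and their median of -1.07 was -0.22 without sham 2.

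**Figure D4:**
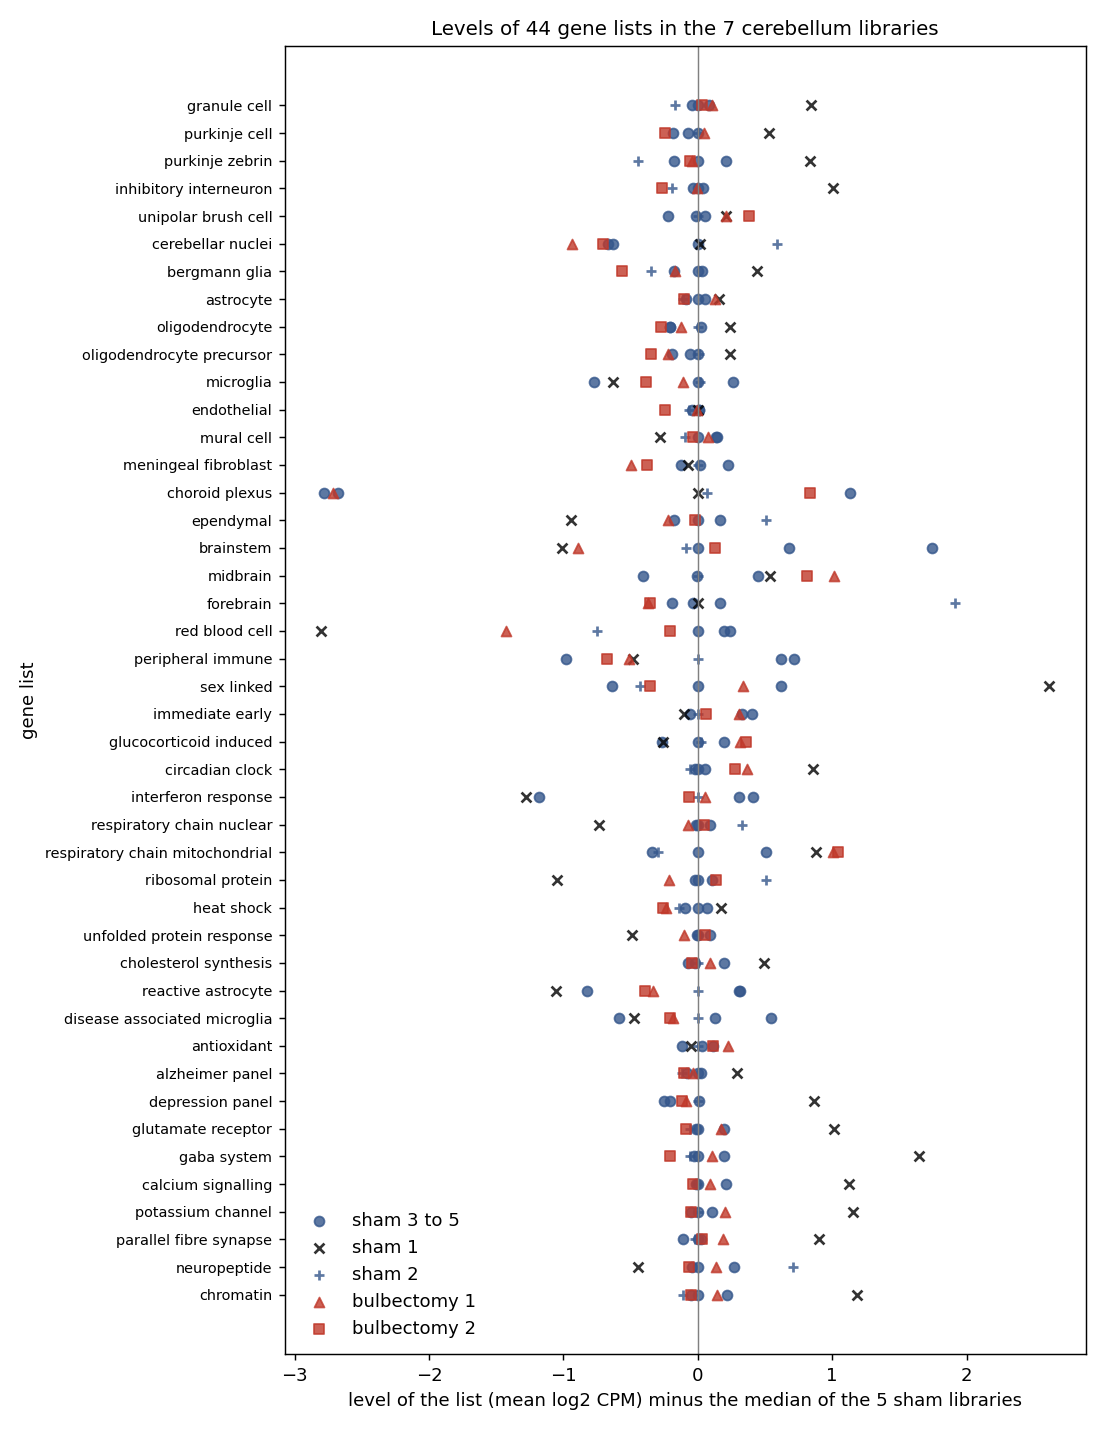
Levels of 44 gene lists (mean log2 CPM of the tested members) in the 7 cerebellum libraries, each minus the median of the 5 sham libraries. Bulbectomy libraries (red) lie above every sham library for the glucocorticoid-induced, mitochondrially encoded and midbrain lists, and sham 1 (crosses) is the highest library for the granule cell, GABA and chromatin lists among others.

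Levels of 36 of the 44 lists overlapped between the groups, 3 lay above every sham library after bulbectomy and 5 below. The 3 were the glucocorticoid and mitochondrial lists, described next, and the midbrain list, which rests on 2 tested genes. The 5 were the lists of cerebellar nuclei, oligodendrocyte precursors, meningeal fibroblasts, forebrain and heat shock genes. The genes induced by glucocorticoids, the stress hormones, had a level of 4.75 and 4.79 after bulbectomy and 4.18, 4.46, 4.16, 4.63 and 4.43 in sham. Of 24 genes 20 were higher, against 42.8% of all genes, with a median log2 fold change of 0.37 (0.39 without sham 1). In 8 of them the groups did not overlap (against 5.97% of all genes), and none was called by edgeR. Per1, a clock gene that glucocorticoids induce, lay at 128 and 122 CPM after bulbectomy and at 85.9, 85.6, 85.0, 63.9 and 75.2 CPM in sham (0.66 ± 0.18, unadjusted p = 0.00600, edgeR, adjusted p = 0.9998), and voom with sample weights called it (adjusted p = 0.0463). Tsc22d3, which encodes the glucocorticoid-induced leucine zipper, lay at 103 and 71.5 CPM against 64.0, 56.2, 40.2, 48.1 and 28.6 CPM. Both genes were higher in each bulbectomy library than in any sham library.

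Not every gene of that list showed this order. Ddit4, an inhibitor of mTOR signalling, lay at 84.3 and 72.3 CPM against 40.7 to 61.5 CPM, and Hif3a at 9.46 and 10.4 CPM against 3.35 to 6.22 CPM, each without overlap. Fkbp5, the glucocorticoid receptor's co-chaperone, lay at 17.7 and 19.3 CPM within the sham range of 11.7 to 21.3 CPM. Sgk1, a kinase of the same response, lay at 61.6 and 59.7 CPM within 39.6 to 77.2 CPM, and Mt1, a metallothionein and the most abundant member, at 782 and 718 CPM within 278 to 1056 CPM. The list shares Per1 with the immediate early list and with the clock list, where Per2 also lay above sham, at 14.9 and 17.2 CPM against 7.23 to 13.1 CPM. Of the 19 clock genes 8 were higher and 11 lower (median -0.095, or 0.15 without sham 1). Time of day and handling at dissection were not given, and their part in these values was not tested.

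The mitochondrially encoded genes of the respiratory chain were higher in 7 of 7 tested, with a median of 0.79 (0.95 without sham 1). Their level was 12.8 in both bulbectomy libraries and 12.7, 11.5, 11.5, 11.8 and 12.3 in sham 1 to 5. mt-Nd4, a complex I subunit, lay at 5467 and 5512 CPM against 4554, 1503, 1730, 1901 and 3653 CPM, and mt-Co1, the catalytic subunit of complex IV, at 19500 and 21037 CPM against 21029, 4279, 4868, 12363 and 12795 CPM. The groups did not overlap in 3 of the 7 genes, against 5.97% of all genes. In mt-Nd5, mt-Co1 and mt-Cytb sham 1 reached or passed the lower bulbectomy library. In mt-Nd1 sham 5 passed it, with 1.91% of the assigned reads against 1.87% in bulbectomy 1 and 2.76% in bulbectomy 2. Of the 46 nuclear genes of the same complexes 22 were higher, with a median of -0.02 (0.09 without sham 2). The share of reads from mitochondrial genes moved with the result, at 7.35% and 7.78% after bulbectomy and 7.03%, 2.53%, 2.80%, 4.43% and 5.58% in sham, and the part that RNA handling or selection plays in it was not tested. 6 further mitochondrial genes of the list had too few reads to be tested.

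**Figure D5:**
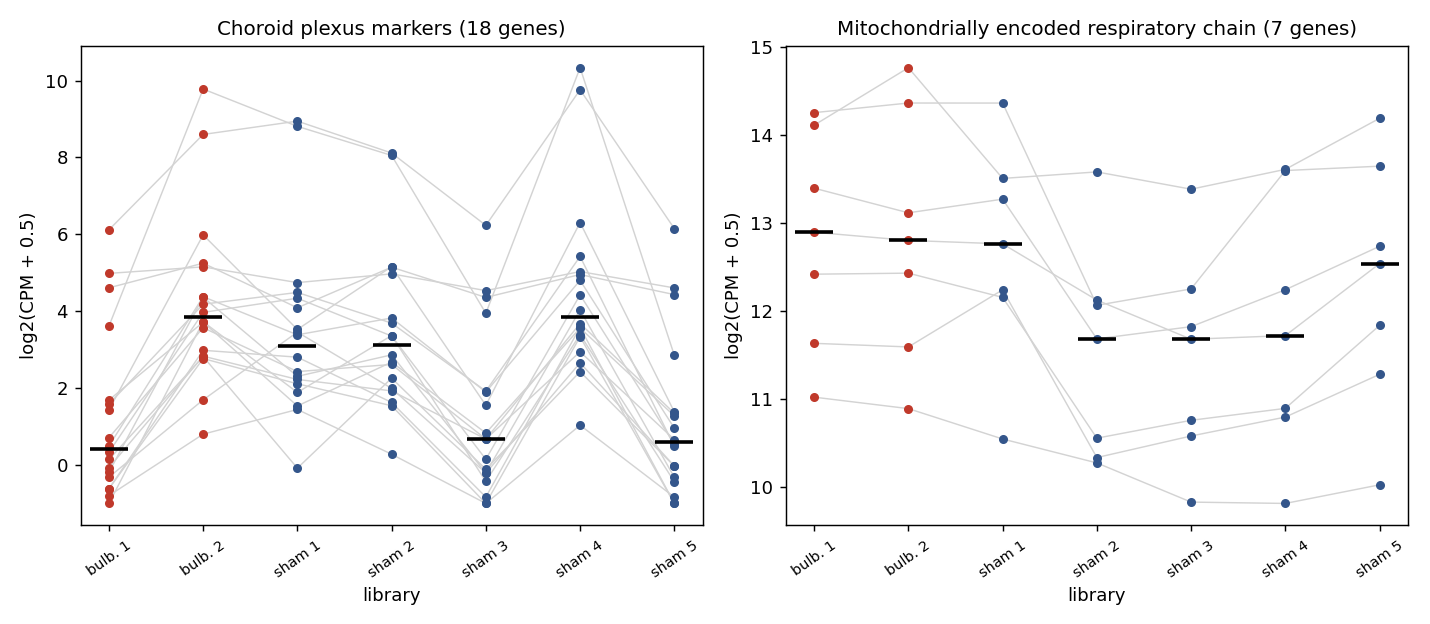
Log2(CPM + 0.5) of the 18 choroid plexus markers (left) and the 7 tested mitochondrially encoded genes (right) in each cerebellum library, with grey lines joining a gene and black bars at the median of the list. Choroid plexus genes are low in bulbectomy 1, sham 3 and sham 5 and high in the other 4 libraries. The mitochondrial genes are high in bulbectomy 1, bulbectomy 2 and sham 1 and lowest in sham 2 to 4.

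Several of the remaining lists are given by their counts or medians, against 42.8% of all genes higher and a median of -0.06. Immediate early genes, which follow neuronal firing, were higher in 14 of 31 (median -0.10), with Egr1 at 40.1 and 44.7 CPM against 42.1 to 67.0 CPM. Interferon-response genes were higher in 21 of 32 (median 0.11), while their level ranged from 2.54 to 4.23 within sham. Without sham 1 they were higher in 13 of 32, and the median turned to -0.11. The median of the ribosomal protein genes also changed sign with the libraries used, at -0.07 over all 7, -0.24 without sham 1 and 0.10 without sham 2. Reactive astrocyte genes were higher in 2 of 15 (median -0.24), antioxidant genes in 12 of 17 (median 0.03) and genes of a depression-related panel in 3 of 14 (median -0.31, or -0.02 without sham 1). Cholesterol synthesis genes had a median of -0.15. In a panel of 24 Alzheimer-related genes 7 were higher (median -0.13). Among them, Aplp2, a homologue of the amyloid precursor protein, lay at 686 and 631 CPM against 1306, 938, 1045, 836 and 894 CPM (-0.61 ± 0.23, unadjusted p = 0.0281, edgeR, adjusted p = 0.9998), with both bulbectomy libraries lowest, and Clu and Apoe overlapped sham.

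The cerebellar differences were last set against those in hippocampus and cortex in 1 fit of all 24 libraries. No gene's bulbectomy difference in the cerebellum differed from that in hippocampus or in cortex at an adjusted p under 0.05 (0% of 16564 genes in either test, edgeR). At an unadjusted p under 0.05, 511 genes did so against hippocampus and 276 against cortex, and limma's voom with sample weights called 3 in each. By themselves, 3 genes were called in the cerebellum in that fit (0.0181%), 192 in hippocampus (1.16%) and 5 in cortex (0.0302%). Of the 36 genes called in the cerebellum without sham 1, 14 were called in hippocampus and 1 in cortex, and the 3 single-exon copies are among the 14. Gm7868 had 0 reads in hippocampus bulbectomy 4, beside 372 of Txndc9, although Tpm3-rs7 and Gm14719 had high shares in that library.

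Several of the named genes had alike differences in the other tissues. Lrrc8a stood at 1.63 ± 0.26 in cerebellum, 2.17 ± 0.23 in hippocampus and 1.24 ± 0.24 in cortex on the log2 scale (SE), and was called in the first 2 (adjusted p = 0.0288 and 4.09e-05, edgeR). The differences of Prepl were -1.01 ± 0.33, -1.41 ± 0.26 and -0.71 ± 0.28, and those of Adnp -2.49 ± 0.74, -4.70 ± 0.78 and -1.36 ± 0.59, and both were called in hippocampus alone (adjusted p = 0.00843 and 0.00520, edgeR). Mir124a-1hg gave 2.77 ± 0.66, 0.02 ± 0.58 and 1.48 ± 0.63, and its cerebellum difference exceeded that of hippocampus by 2.76 ± 0.90 without passing the adjusted threshold (adjusted p = 0.9999, edgeR).

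The lowest adjusted p of these tests of difference, 0.0709 against hippocampus (edgeR), belonged to a gene with a predicted name. Among genes without predicted names, those with the smallest p were mostly genes with a difference outside the cerebellum. Against hippocampus they included Pou4f1, a transcription factor of midbrain and habenular neurons, with -0.22 ± 1.05 in cerebellum and 6.16 ± 0.94 in hippocampus, and Irx2, with -0.57 ± 0.50 and 2.40 ± 0.48. Leng8 was a cerebellar case, at 1.69 ± 0.41 against -0.71 ± 0.36 in hippocampus (adjusted p of the difference = 0.901, edgeR), as was Pth2r, a receptor with 4 and 7 reads after bulbectomy and 1 in all sham libraries. Ptpro stood at 0.25 ± 0.21 and -0.87 ± 0.17. Against cortex they were Acan, the proteoglycan of perineuronal nets, with -1.08 ± 0.38 in cerebellum and 1.22 ± 0.29 in cortex, the glycine transporter Slc6a5, Hrk, Ecel1 and Ly6g6e. In each of these 5 genes the cortex difference was positive and larger than that in the cerebellum.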

How the data were processed

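Single-end polyA RNA-seq libraries prepared with a directional kit, per the labels' protocols, were used for the 7 cerebellum libraries, with the 17 other libraries for the tests between tissues. Values are unnormalized counts of reads for each gene, which the authors deposited after use of Trimmomatic, STAR and featureCounts on mm10, per the submitters' processing notes. Program versions, gene annotation and the strand setting of the counting were not given in the sources used here. Of 55487 gene identifiers, 55227 were in GENCODE M21, and summary totals were left out. Counts were filtered (filterByExpr), TMM-scaled and tested with edgeR 4.0.16's robust quasi-likelihood test with Benjamini-Hochberg adjustment over all genes (threshold 0.05), a procedure tested on simulated data. Log2 fold changes are bulbectomy minus sham. DESeq2 1.42.0 and limma 3.58.1 were alternatives, with other scalings, filters, a replicate block and left-out libraries.

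Named genes were the called genes, or the 5 of smallest p per direction without predicted names, the 5 of smallest p per test between tissues, and for lists the most abundant or called members. Not every list is described. Described lists with no called member are given by counts, medians or the order of their levels, with examples chosen after their values were seen. The comparison and the 44 lists (788 symbols, 720 tested) were chosen with earlier results of these data known. Single-exon copies were aligned to their sources with Biopython (match 1, mismatch -2, gap opening -4, gap extension -1). Of the genes this rule or the lists name, 2 are not reported here. Intervals cover counting error only.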

Additional observations from a re-analysis of the deposited data

Results flagged for a closer look

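In 62 sets of 5 sham values (named genes, lists and library measures), 17 had 1 library whose gap to the next took up more than 0.71 of the whole range (Dixon's 95% limit). Chance gives about 1 set in 20 for independent sets. These sets are not independent, since they use the same 5 libraries and some lists share genes, so 1 deviant library can make many pass. Of the 17, 13 came from sham 1. Sham 1 was the highest for Pcdhb2 (3.65 CPM, against 1.01 to 1.52). It was also the highest in the levels, as mean log2 CPM, of granule cell (8.91), Purkinje cell (7.29) and inhibitory interneuron genes (6.42). The same held for the circadian clock (5.63), depression-related (5.06), glutamate receptor (5.87), GABA (6.46), calcium signalling (6.85), potassium channel (5.92), parallel fibre synapse (6.69) and chromatin (6.22) lists. Its level was the lowest for the unfolded protein response (5.43, against 5.92 to 6.01).

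Sham 2 was the highest in forebrain marker level (4.37), in the share of reads from the 10 most abundant genes (27.6%), in reads outside annotated features (9.22%) and in the share of Bc1 (21.5%).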

How the results depend on the processing

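Over all 7 libraries 2 genes were called, and the count was 2 under RLE or upper-quartile scaling, without a low-count filter, without robust fitting, against a fold threshold of 1.2 and with the length and GC trend removed. It was 0 with a CPM above 1 in at least 5 libraries, a filter that Tpm3-rs7 and Gm14719 do not pass (367 genes at an unadjusted p under 0.05, edgeR). It was 12 with DESeq2 and 67 with limma's voom with sample weights (57 higher, 10 lower), and both genes were among them. Leaving out 1 library gave 0 to 36 calls: 36 without sham 1 and 0 without any other. Without sham 1 and sham 2 together, an alternative chosen after seeing the data, 61 genes were called (47 higher, 14 lower), including 35 of the 36.

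With the replicate number as a replicate block, 0 genes were called (426 at an unadjusted p under 0.05, edgeR). The labels name no pairing and only numbers 1 and 2 are shared. Deviations of same-numbered libraries correlated at 0.371 and 0.283, and those of bulbectomy 2 and sham 3 at 0.235. With 2 bulbectomy libraries, each sham library correlates with them at equal and opposite values. The correlations therefore cannot show a pairing. With the block the median of the meningeal fibroblast list was -0.16, that of the interferon list 0.77, and those of the astrocyte (0.19), microglia (0.10), choroid plexus (-1.11), immediate early (0.29), nuclear respiratory chain (0.20), ribosomal protein (0.21), reactive astrocyte (0.13) and Alzheimer-related (0.07) lists changed sign.

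The tests between tissues each gave 3 calls with voom. Against hippocampus, leaving out a cerebellum library gave 0 to 1 calls, the 1 without sham 2. The genes of smallest p named over the 7 libraries kept their sign in each alternative that gave them a value, and the other named genes were not run under every alternative. The depth of 10400540 to 20230673 reads puts 3 reads at 0.148 to 0.288 CPM, and 2 bulbectomy libraries limit the precision of every value.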
